A study of Mus musculus with 15 samples.

Results

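Inpp5d, Plcg2, Syk, Lyn, Fgr, Vav1, Blnk, Pik3cg and Abi3 encode the kinases, lipid enzymes and adaptors that carry signals from immune receptors into myeloid cells. They were taken by gene symbol from the deposited count table of mouse forebrain, in which these 9 symbols each name 1 of 55487 Ensembl gene identifiers. 8 of the 9 had enough counts to be among the 21780 genes tested, and Fgr did not. Of frozen wild-type mouse forebrain, 15 RNA libraries were compared, 3 in each of 5 groups: brains labelled PLX 1x (PLX1X), brains labelled PLX 3x whose library names end in CD0 (PLX3X_CD0), brains titled only as PLX treated whose library names carry PLX3X and CD30 (PLX3X_CD30), brains labelled IR-BMT, and brains without treatment (NT). The labels give no age, dose, time or meaning for PLX, CD0, CD30 and IR-BMT. The series title concerns monocyte-derived macrophages that settle in the brain, and each comparison asks how far the transcripts of one treated group stand from another group. Whether libraries of the same group stem from different animals is not stated. A p-value therefore reflects only how libraries vary within groups, and that variation may be technical. In the fit on all 15 libraries this spread is estimated over all 5 groups.

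In myeloid cells, receptors that carry or couple to an ITAM (an immunoreceptor tyrosine-based activation motif), such as TREM2 with its partner TYROBP, are phosphorylated by Src-family kinases. The kinase SYK then docks on the phosphorylated motif and passes the signal through adaptors to phospholipase C-gamma, to Rac exchange factors and to phosphoinositide 3-kinases, and lipid phosphatases counter it. In the brain the cells that use this relay are mainly microglia and other macrophages, and human variants in or near PLCG2, ABI3, INPP5D and TREM2 are associated with the risk of Alzheimer disease.

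Transcription of many myeloid genes depends on the factor PU.1, encoded by Spi1, whose binding motif has a purine-rich core. Promoter windows from 250 bases before to 50 bases after a gene's start were found in the RefSeq annotation of GRCm38.p6 for 7 of the 9 genes. The PU.1 core GAGGAAGT, searched on both strands, occurred in the windows of 3 of those genes, Inpp5d, Vav1 and Pik3cg, and in 3.20% of 32851 mouse promoter windows of the same length. The shorter string GAGGAA, which the longer core contains, occurred in windows of 5 of the genes and in 28.3% of all windows. A match is a description of the letters only. For each of the 3 genes 1 window that holds the longer core is shown, because these genes include the one furthest below NT and one that moved much less, and that of Blnk because it stood nearest to NT and held neither string. Capitals mark each match of either string on either strand (TTCCTC and ACTTCCTC on the strand opposite to the motif).
Inpp5d: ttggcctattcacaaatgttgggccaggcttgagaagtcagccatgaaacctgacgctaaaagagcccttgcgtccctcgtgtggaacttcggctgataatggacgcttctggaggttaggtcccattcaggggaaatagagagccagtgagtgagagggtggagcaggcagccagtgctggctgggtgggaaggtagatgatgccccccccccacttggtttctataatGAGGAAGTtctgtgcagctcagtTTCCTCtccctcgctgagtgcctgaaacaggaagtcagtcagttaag
Vav1: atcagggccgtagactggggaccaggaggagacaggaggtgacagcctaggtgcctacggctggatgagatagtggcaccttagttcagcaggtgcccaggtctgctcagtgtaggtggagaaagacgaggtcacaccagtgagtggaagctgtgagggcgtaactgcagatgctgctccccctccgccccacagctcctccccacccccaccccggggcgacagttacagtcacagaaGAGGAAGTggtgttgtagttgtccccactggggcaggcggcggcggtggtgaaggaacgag
Pik3cg: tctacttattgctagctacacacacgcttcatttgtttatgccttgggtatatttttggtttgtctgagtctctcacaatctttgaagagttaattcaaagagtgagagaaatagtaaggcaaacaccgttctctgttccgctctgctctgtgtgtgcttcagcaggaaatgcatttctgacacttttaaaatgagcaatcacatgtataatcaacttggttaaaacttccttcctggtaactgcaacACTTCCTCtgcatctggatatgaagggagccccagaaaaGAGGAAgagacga
Blnk: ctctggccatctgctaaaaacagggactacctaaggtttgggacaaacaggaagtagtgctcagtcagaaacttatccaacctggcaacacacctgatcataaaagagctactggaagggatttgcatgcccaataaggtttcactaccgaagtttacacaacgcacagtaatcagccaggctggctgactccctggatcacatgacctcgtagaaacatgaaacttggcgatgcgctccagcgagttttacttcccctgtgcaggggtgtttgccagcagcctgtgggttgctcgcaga
The windows lie at chr1:87620062-87620361 for Inpp5d (plus strand), chr17:57278850-57279149 for Vav1 (plus strand), chr12:32208610-32208909 for Pik3cg (minus strand) and chr19:40994172-40994471 for Blnk (minus strand). Measured from the start site, the longer core lay at -20 in Inpp5d, at -11 in Vav1 and at 0 in Pik3cg, where it was on the opposite strand. Inpp5d had a further short match at 3 and Pik3cg at 37. Pik3cg has a second annotated start whose window overlaps the one shown, and the same letters lie at -189 and -152 of that start. Syk had 1 short match, at -9 of its second annotated start, and Fgr 1 at 31. The window of Plcg2, like that of Blnk, held neither string, and Plcg2 fell in every treated group. The Blnk window does hold AGGAAGT, the longer string without its first base.

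Total counts ran from 19249641 to 54801136 per library. Levels are library counts scaled to a common total by TMM factors (CPM), and values of replicates 1, 2 and 3 are given in that order. A log2 fold change carries the standard error (SE) of one edgeR quasi-likelihood fit on all 15 libraries, its p is adjusted by Benjamini and Hochberg's method over all 21780 genes, and a gene is said to have risen or fallen when that adjusted p is under 0.05. The forebrain contained microglia and macrophage RNA in every group. The summed level of 16 pan-macrophage markers, among them Csf1r, Aif1 and C1qa, was 30.1 to 79.1 CPM in PLX1X, 24.6 to 58.0 in PLX3X_CD0, 297 to 335 in PLX3X_CD30 and 300 to 335 in IR-BMT, against 574 to 714 in NT. In bulk RNA, fewer cells of a type and less RNA per cell cannot be told apart. Libraries differed within PLX1X and within PLX3X_CD0: the mean log2 level of the 16 markers was 1.83 in PLX1X replicate 2 and 0.36 in PLX1X replicate 3, and 1.33 in PLX3X_CD0 replicate 2 and 0.24 in PLX3X_CD0 replicate 3. The 4 comparisons with NT share the same 3 NT libraries.

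Markers of neurons summed to 118% to 128% of their NT mean in the treated groups, those of endothelium to 86.9% to 112%, those of astrocytes to 89.6% to 95.6% and those of oligodendrocytes to 68.1% to 84.6%. B cells also use Syk, Lyn, Plcg2, Vav1 and Blnk. The 9 B cell markers summed to 29.6 to 37.0 CPM in PLX1X, 18.6 to 27.0 in PLX3X_CD0, 39.9 to 42.7 in PLX3X_CD30 and 32.5 to 43.2 in IR-BMT, against 38.3 to 49.1 in NT. Ighm made up most of that sum, at a mean of 32.1 CPM in PLX1X and 20.5 in PLX3X_CD0, against 42.4 in NT. Ms4a1 had no count in any library, and Fcrla had none in NT. The 9 T and NK cell markers summed to at most 1.70 CPM, the 10 neutrophil and mast cell markers to at most 2.70 and the 5 platelet markers to at most 5.93 in any library. The neutrophil marker Ly6g had no count in PLX1X, PLX3X_CD30, IR-BMT and NT. The part of these cells in the levels of the signalling genes was not tested.

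7 of the 8 genes tested fell in PLX1X brains, where 8.12% of all genes tested fell, and the same number fell in PLX3X_CD0 brains, where 9.53% fell. Their median log2 fold change was -1.91 in PLX1X and -1.71 in PLX3X_CD0, beside -0.04 and -0.03 over all genes tested. The sizes differed widely: Vav1 stood at 9.38% of its NT mean in PLX1X and 6.40% in PLX3X_CD0, whereas Blnk stood at 75.4% and 76.7%. Without overlap, 8 of the 9 genes were lower in PLX1X than in NT and 7 were lower in PLX3X_CD0, where 16.1% and 16.7% of all genes tested were.

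**Figure D1:**
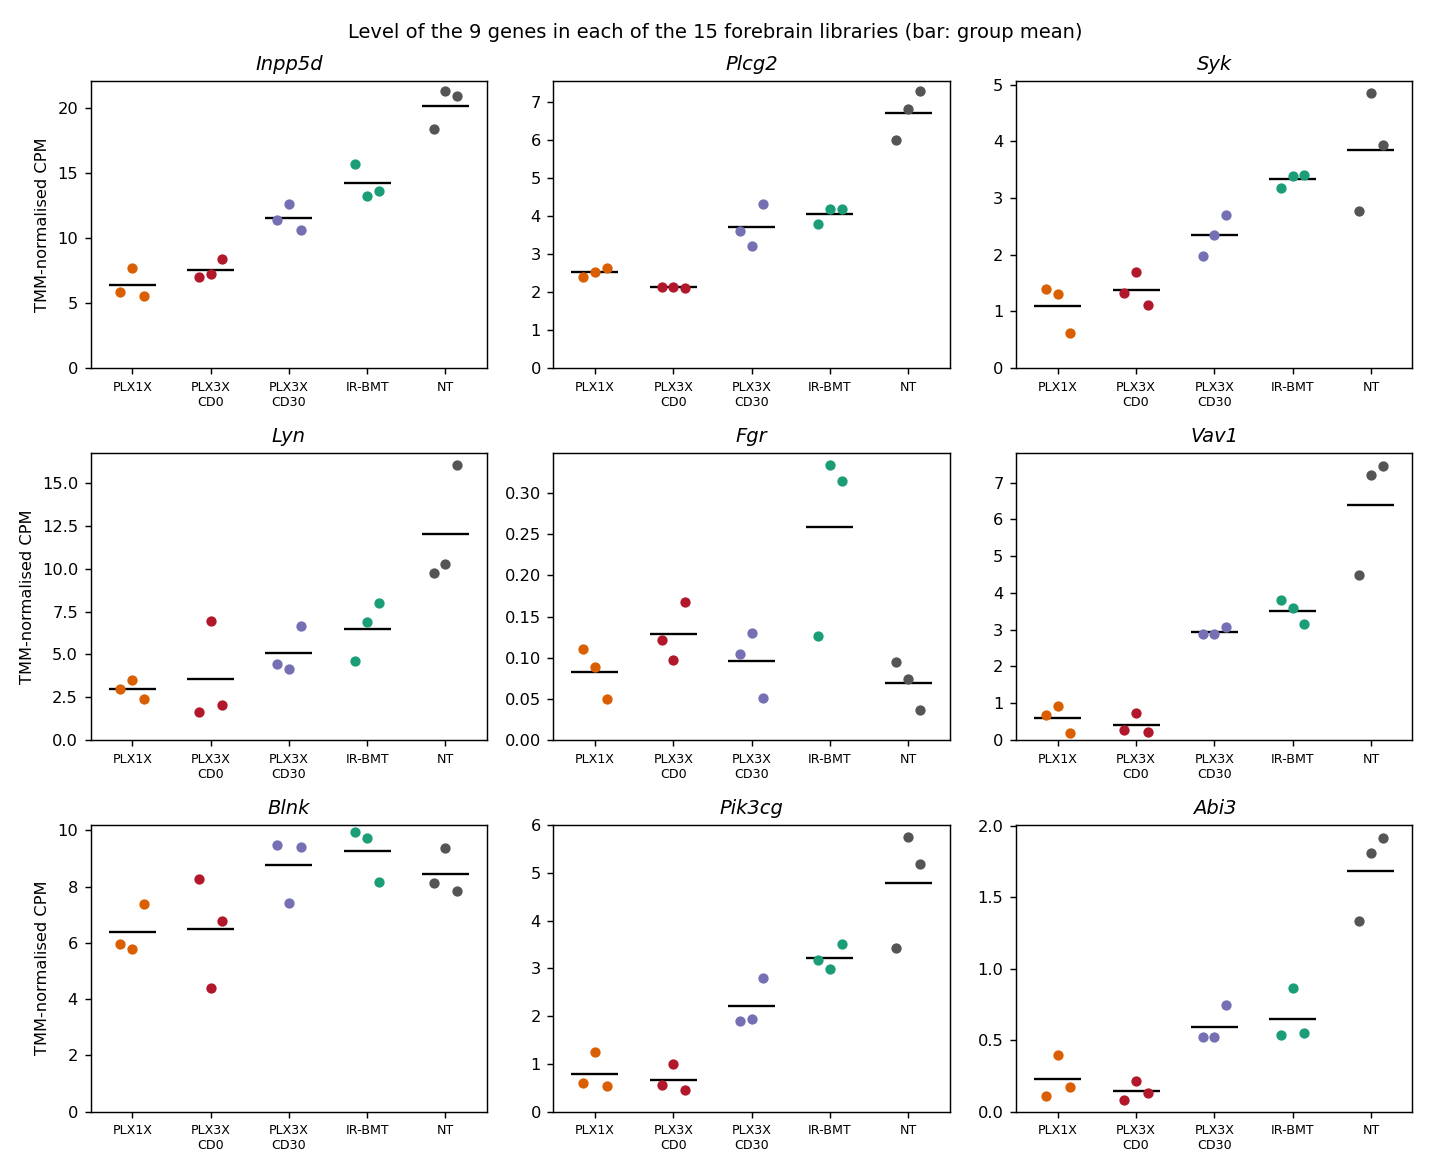
TMM-normalised CPM (vertical axes, each from 0) of the 9 genes in the 3 libraries (points) of each group, with the group mean (bar). Vav1, Pik3cg and Abi3 lie near 0 in PLX1X and PLX3X_CD0, Blnk overlaps between PLX3X_CD0 and NT, and Fgr lies under 0.34 CPM in every library.

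The Src-family kinase Lyn (ENSMUSG00000042228, chromosome 4, 3678115 to 3813122, mm10), which phosphorylates ITAMs and also inhibitory motifs, had 2.98, 3.52 and 2.41 CPM in PLX1X and 1.62, 6.95 and 2.05 CPM in PLX3X_CD0, against 9.72, 10.3 and 16.1 CPM in NT. Both groups lay below NT, and PLX3X_CD0 replicate 2 stood far above the other libraries of its group. Lyn fell by 2.02 ± 0.49 on the log2 scale in PLX1X (edgeR adjusted p = 0.0143) and by 1.77 ± 0.48 in PLX3X_CD0 (adjusted p = 0.0216). Both calls ended in some fits that left out 1 library, although the log2 fold change stayed negative in every alternative. The call in PLX1X ended without PLX1X replicate 1 or 3 (highest adjusted p = 0.0644). That in PLX3X_CD0 ended when NT replicate 3 or either of PLX3X_CD0 replicates 1 and 3 was left out and in a fit on the 6 libraries compared (highest adjusted p = 0.131), and the log2 fold change was -2.71 without PLX3X_CD0 replicate 2.

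Syk (ENSMUSG00000021457, chromosome 13, 52583173 to 52648792, mm10), the kinase that binds phosphorylated ITAMs, had 1.39, 1.31 and 0.616 CPM in PLX1X and 1.32, 1.69 and 1.12 CPM in PLX3X_CD0, against 2.76, 4.85 and 3.94 CPM in NT. No treated library reached an NT library. It fell by 1.80 ± 0.27 on the log2 scale in PLX1X (edgeR adjusted p = 0.000135) and by 1.50 ± 0.26 in PLX3X_CD0 (adjusted p = 0.000377).

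Blnk (ENSMUSG00000061132, chromosome 19, 40928927 to 40994535, mm10), an adaptor that SYK phosphorylates and that recruits phospholipase C-gamma, best known from B cells, departed least from NT. It had 5.96, 5.79 and 7.39 CPM in PLX1X and 8.29, 4.41 and 6.79 CPM in PLX3X_CD0, against 8.15, 9.39 and 7.85 CPM in NT. PLX1X lay below NT, and PLX3X_CD0 overlapped it. Its log2 fold change was -0.41 ± 0.18 in PLX1X (edgeR adjusted p = 0.128) and -0.38 ± 0.18 in PLX3X_CD0 (adjusted p = 0.143), neither past the threshold. Without PLX3X_CD0 replicate 1 the second passed it (adjusted p = 0.0301).

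Plcg2 (ENSMUSG00000034330, chromosome 8, 117498291 to 117635142, mm10), the phospholipase that cleaves phosphatidylinositol bisphosphate into calcium-releasing inositol trisphosphate and diacylglycerol, had 2.41, 2.53 and 2.63 CPM in PLX1X and 2.15, 2.14 and 2.11 CPM in PLX3X_CD0, against 6.01, 6.81 and 7.30 CPM in NT. The libraries of each treated group lay close together, unlike those of the pan-macrophage markers. Plcg2 fell by 1.42 ± 0.15 on the log2 scale in PLX1X (edgeR adjusted p = 4.37e-06) and by 1.66 ± 0.15 in PLX3X_CD0 (adjusted p = 3.65e-07).

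Inpp5d (ENSMUSG00000026288, chromosome 1, 87620312 to 87720507, mm10) encodes SHIP1, the inositol phosphatase that removes the phosphate added by phosphoinositide 3-kinases and so restrains the pathway. It had 5.85, 7.69 and 5.59 CPM in PLX1X and 7.05, 7.24 and 8.42 CPM in PLX3X_CD0, against 18.4, 21.3 and 20.9 CPM in NT. Even the highest treated library lay far under the lowest NT library. It fell by 1.67 ± 0.12 on the log2 scale in PLX1X (edgeR adjusted p = 4.12e-08) and by 1.42 ± 0.12 in PLX3X_CD0 (adjusted p = 1.66e-07).

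Pik3cg (ENSMUSG00000020573, chromosome 12, 32173473 to 32208659, mm10), the catalytic subunit of the phosphoinositide 3-kinase that G protein-coupled receptors activate in leukocytes, fell further. It had 0.593, 1.24 and 0.542 CPM in PLX1X and 0.567, 0.990 and 0.448 CPM in PLX3X_CD0, against 3.43, 5.75 and 5.18 CPM in NT. In each treated group replicate 2, the library with the most pan-macrophage RNA, was the highest. Its log2 fold change was -2.61 ± 0.32 in PLX1X (edgeR adjusted p = 2.23e-05) and -2.85 ± 0.32 in PLX3X_CD0 (adjusted p = 4.74e-06).

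Vav1 (ENSMUSG00000034116, chromosome 17, 57279100 to 57328031, mm10), the exchange factor that loads Rac with GTP in blood-lineage cells, had 0.667, 0.931 and 0.197 CPM in PLX1X and 0.263, 0.737 and 0.224 CPM in PLX3X_CD0, against 4.48, 7.21 and 7.45 CPM in NT. Replicate 2 was again the highest library of each treated group. Its log2 fold change was -3.40 ± 0.41 in PLX1X (edgeR adjusted p = 5.11e-05) and -3.97 ± 0.43 in PLX3X_CD0 (adjusted p = 9.22e-06), which made it the gene that fell furthest of the 8.

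Abi3 (ENSMUSG00000018381, chromosome 11, 95830074 to 95842476, mm10), a subunit of the WAVE complex that drives actin branching, had 0.111, 0.399 and 0.172 CPM in PLX1X and 0.0810, 0.213 and 0.131 CPM in PLX3X_CD0, against 1.33, 1.81 and 1.92 CPM in NT. These levels rest on 31, 22 and 205 counts per group of 3 libraries in PLX1X, PLX3X_CD0 and NT. It fell by 2.91 ± 0.42 on the log2 scale in PLX1X (edgeR adjusted p = 9.31e-05) and by 3.56 ± 0.44 in PLX3X_CD0 (adjusted p = 1.03e-05). On the opposite strand, 2913 exon bases of Abi3 overlap Zfp652, 1708 overlap Phospho1 and 234 overlap Gngt2, and since the library kit does not mark strand, reads of these genes cannot be told apart there. Lyn likewise shares 248 exon bases with Gm26857.

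Fgr (ENSMUSG00000028874, chromosome 4, 132974095 to 133001910, mm10), a further Src-family kinase of myeloid cells, had 2 to 12 counts per library and was not tested in the fit on all libraries. It had 0.111, 0.0887 and 0.0492 CPM in PLX1X and 0.122, 0.0970 and 0.168 CPM in PLX3X_CD0, against 0.0953, 0.0743 and 0.0369 CPM in NT. PLX1X overlapped NT and PLX3X_CD0 lay above it, as 17.0% of all genes tested did. Over all 3 libraries of each group the ratio of its level in PLX3X_CD0 to that in NT was 2.14, with an exact 95% interval of 0.869 to 5.99 that covers counting error only. In PLX1X over NT that ratio was 1.42 (0.515 to 4.25), so no fall of Fgr was detectable in either group at this depth.

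Set against each other, PLX3X_CD0 and PLX1X brains gave no call among the 8 genes tested, where 2.46% of all genes tested passed in either direction. The count was 0 with edgeR's adjusted p, 0 at an unadjusted p under 0.05 and 0 with DESeq2. Plcg2, with a log2 fold change of -0.24 ± 0.15, was the only gene of the 9 without overlap. It lay lower in PLX3X_CD0, as 11.4% of all genes tested did, so 1 of 9 is near the general share. The log2 fold changes of the others ran from -0.65 ± 0.49 for Abi3 to 0.30 ± 0.27 for Syk. At 2 SE these leave room for differences of more than 2-fold for Abi3, Vav1 and Lyn.

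In PLX3X_CD30 brains 4 of the 8 genes tested stood below NT past the threshold, where 1.84% of all genes tested fell. Their median log2 fold change over the 8 was -0.99, beside -0.02 over all genes tested. 7 of the 9 genes lay below NT without overlap, where 11.1% of all genes tested did. DESeq2 called 5, a count given without a share of all genes beside it. Inpp5d had 11.4, 12.6 and 10.7 CPM in PLX3X_CD30, against 18.4, 21.3 and 20.9 CPM in NT, and fell by 0.81 ± 0.12 on the log2 scale (edgeR adjusted p = 0.000681). Plcg2 had 3.60, 3.21 and 4.32 CPM in PLX3X_CD30, against 6.01, 6.81 and 7.30 CPM in NT, and fell by 0.86 ± 0.15 (adjusted p = 0.00204). Both lipid enzymes thus stood at 57.2% and 55.3% of their NT means.

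Pik3cg had 1.90, 1.93 and 2.80 CPM in PLX3X_CD30, against 3.43, 5.75 and 5.18 CPM in NT, with a log2 fold change of -1.12 ± 0.29 (edgeR adjusted p = 0.0281). Abi3 had 0.522, 0.522 and 0.745 CPM in PLX3X_CD30, against 1.33, 1.81 and 1.92 CPM in NT, with a log2 fold change of -1.51 ± 0.38 (adjusted p = 0.0223). Neither group overlapped NT, yet each call ended when 1 of 4 libraries was left out: NT replicate 2, NT replicate 3, PLX3X_CD30 replicate 1 or PLX3X_CD30 replicate 2 for Pik3cg (highest adjusted p = 0.118), and NT replicate 3 or any PLX3X_CD30 library for Abi3 (highest adjusted p = 0.0943).

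Vav1 had 2.87, 2.87 and 3.08 CPM in PLX3X_CD30, against 4.48, 7.21 and 7.45 CPM in NT, and its log2 fold change was -1.13 ± 0.36 (edgeR adjusted p = 0.0749). Syk had 1.98, 2.35 and 2.70 CPM in PLX3X_CD30, against 2.76, 4.85 and 3.94 CPM in NT, and its log2 fold change was -0.73 ± 0.26 (adjusted p = 0.0968). Lyn had 4.46, 4.15 and 6.63 CPM in PLX3X_CD30, against 9.72, 10.3 and 16.1 CPM in NT, and its log2 fold change was -1.25 ± 0.47 (adjusted p = 0.152). None of these 3 passed the threshold, although none overlapped NT. Vav1 passed it with DESeq2, in the fit on the 6 libraries compared, without PLX1X replicate 3 and without PLX3X_CD0 replicate 2 (adjusted p 4.25e-05 to 0.205 over all alternatives). Lyn passed it in the fit on 6 libraries and without PLX3X_CD0 replicate 2, and Syk without NT replicate 1. Without the filter on low counts all 3 passed. That fit had infinite prior degrees of freedom for the median gene, so a gene's own spread may hardly have counted in it. Blnk, at 9.47, 7.41 and 9.43 CPM in PLX3X_CD30 against 8.15, 9.39 and 7.85 CPM in NT, overlapped NT and had a log2 fold change of 0.05 ± 0.18 (adjusted p = 0.908). Fgr, at 0.104, 0.131 and 0.0514 CPM in PLX3X_CD30, overlapped NT as well.

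In IR-BMT brains 3 of the 8 genes tested stood below NT past the threshold, where 15.4% of all genes tested fell. The median log2 fold change of the 8 was -0.66, beside -0.05 over all genes tested. Inpp5d had 15.7, 13.3 and 13.7 CPM in IR-BMT, against 18.4, 21.3 and 20.9 CPM in NT, and fell by 0.51 ± 0.12 on the log2 scale (edgeR adjusted p = 0.00291). Plcg2 had 3.78, 4.18 and 4.20 CPM in IR-BMT, against 6.01, 6.81 and 7.30 CPM in NT, and fell by 0.73 ± 0.15 (adjusted p = 0.000932). Abi3 had 0.536, 0.864 and 0.551 CPM in IR-BMT, against 1.33, 1.81 and 1.92 CPM in NT, and fell by 1.38 ± 0.38 (adjusted p = 0.00913). Each lay below NT in all 3 libraries. Their human counterparts are the 3 of the 9 named above for Alzheimer risk, and whether these genes differed from the other 6 was not tested.

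Vav1 and Lyn also lay below NT without overlap in IR-BMT, which makes 5 such genes of 9, where 21.2% of all genes tested lay so. Vav1 had 3.82, 3.59 and 3.15 CPM in IR-BMT, against 4.48, 7.21 and 7.45 CPM in NT, and its log2 fold change was -0.87 ± 0.36 (edgeR adjusted p = 0.0791). It passed the threshold with DESeq2, in the fit on the 6 libraries compared, and without NT replicate 1, PLX1X replicate 3 or PLX3X_CD0 replicate 2. Lyn had 4.60, 6.88 and 8.00 CPM in IR-BMT, against 9.72, 10.3 and 16.1 CPM in NT, and its log2 fold change was -0.89 ± 0.47 (adjusted p = 0.180). It passed the threshold in the fit on 6 libraries and without PLX3X_CD0 replicate 2. Both passed without the filter on low counts, in the fit with infinite prior degrees of freedom for the median gene. Pik3cg, Syk and Blnk overlapped NT. Pik3cg had 3.19, 2.98 and 3.52 CPM in IR-BMT, against 3.43, 5.75 and 5.18 CPM in NT, and its log2 fold change was -0.58 ± 0.29 (adjusted p = 0.142). Syk had 3.19, 3.40 and 3.41 CPM in IR-BMT, against 2.76, 4.85 and 3.94 CPM in NT, and its log2 fold change was -0.22 ± 0.25 (adjusted p = 0.549). The NT libraries of Syk were spread more widely than those of IR-BMT. Blnk had 9.93, 9.72 and 8.16 CPM in IR-BMT, against 8.15, 9.39 and 7.85 CPM in NT, and its log2 fold change was 0.13 ± 0.18 (adjusted p = 0.636).

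Fgr was the one gene of the 9 that lay above NT in IR-BMT without overlap, as 18.7% of all genes tested did. It had 0.126, 0.334 and 0.315 CPM in IR-BMT, against 0.0953, 0.0743 and 0.0369 CPM in NT, from 28 counts in IR-BMT and 7 in NT. IR-BMT replicate 1 stood close to the NT libraries and the other IR-BMT libraries far above them. The ratio of the level over the 3 libraries was 4.38 in IR-BMT over NT, with an exact 95% counting interval of 1.87 to 11.9. That interval leaves out the spread between libraries. It may be too narrow even for counting error, since a count may be worth less than 1 fragment. Fits that left out 1 library tested Fgr in 13 cases, because the high counts of IR-BMT replicates 2 and 3 then met the filter. They called it higher in 10 of them (edgeR adjusted p 0.0235 to 0.148 over the 13). Since Fgr entered these fits through the group where it is high, they do not count as support. Without NT replicate 1, 2 or 3 the adjusted p was 0.0501, 0.0740 and 0.148, past the threshold in none. With all libraries, DESeq2 gave an adjusted p of 0.0618, and the edgeR fit without a filter on low counts gave 0.172.

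**Figure D2:**
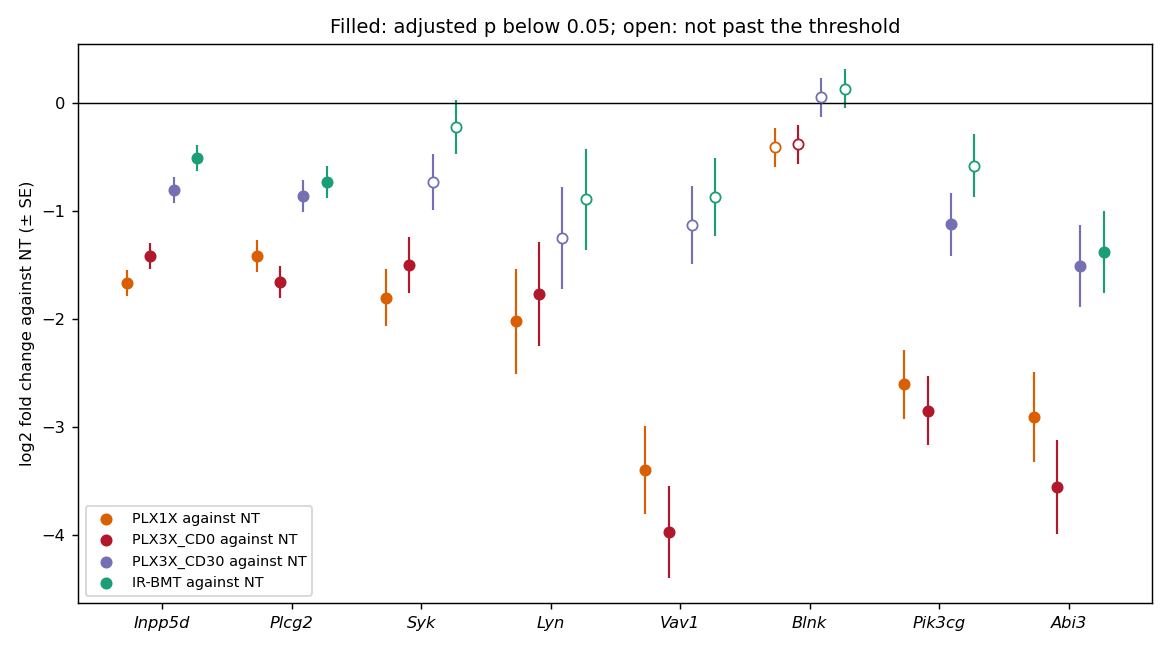
Log2 fold change against NT (vertical axis) with its SE for the 8 genes tested, in PLX1X, PLX3X_CD0, PLX3X_CD30 and IR-BMT, from left to right within each gene. Filled points passed an adjusted p of 0.05; Vav1 has the lowest value, -3.97 in PLX3X_CD0, and all 4 points of Blnk are open.

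PLX3X_CD30 brains were set against PLX3X_CD0 brains, the other group with PLX3X in its library names. 5 of the 8 genes tested stood higher in PLX3X_CD30, where 1.87% of all genes tested did, and 6 of the 9 lay higher without overlap, where 12.1% did. Vav1 rose by 2.84 ± 0.43 on the log2 scale (edgeR adjusted p = 0.00115), Abi3 by 2.05 ± 0.45 (adjusted p = 0.0132), Pik3cg by 1.72 ± 0.32 (adjusted p = 0.00388), Plcg2 by 0.80 ± 0.15 (adjusted p = 0.00415) and Inpp5d by 0.61 ± 0.12 (adjusted p = 0.00617). The call of Abi3 ended without PLX3X_CD0 replicate 1, PLX3X_CD0 replicate 3 or PLX3X_CD30 replicate 3 (highest adjusted p = 0.0673). Syk did not overlap either, with a log2 fold change of 0.77 ± 0.26 (adjusted p = 0.130). Blnk had a log2 fold change of 0.43 ± 0.18 (adjusted p = 0.230). Lyn had one of 0.52 ± 0.48 (adjusted p = 0.698), which became 1.46 (adjusted p = 0.0129) without PLX3X_CD0 replicate 2.

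IR-BMT brains were set against PLX3X_CD30 brains, whose pan-macrophage level was close to theirs: the mean log2 level of the 16 markers was 3.65 ± 0.07 in IR-BMT and 3.65 ± 0.04 in PLX3X_CD30 (SD, n = 3 each). None of the 8 genes passed edgeR's adjusted threshold, where 16.5% of all genes tested did, 1 passed at an unadjusted p under 0.05 (Inpp5d) and 0 with DESeq2. 4 of the 9 genes nevertheless lay higher in IR-BMT without overlap, where 18.5% of all genes tested did. Inpp5d had 15.7, 13.3 and 13.7 CPM in IR-BMT, against 11.4, 12.6 and 10.7 CPM in PLX3X_CD30, and its log2 fold change was 0.30 ± 0.12 (adjusted p = 0.102), and it passed in the fit on the 6 libraries alone (adjusted p = 0.0441). Syk differed by 0.51 ± 0.26 (adjusted p = 0.200), Pik3cg by 0.54 ± 0.30 (adjusted p = 0.237) and Vav1 by 0.26 ± 0.36 (adjusted p = 0.700).

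The genes were also compared with the macrophage RNA of the same library, as the log2 level of a gene minus the mean log2 level of the 16 pan-macrophage markers. In PLX1X and PLX3X_CD0 brains, most of them were higher against this measure than in NT. Blnk differed by 3.04 in PLX1X and 3.43 in PLX3X_CD0, Plcg2 by 2.06 and 2.22, Inpp5d by 1.79 and 2.44, Syk by 1.65 and 2.41, and Lyn by 1.48 and 1.84, each without overlap with NT. These comparisons were added after the data had been seen, and in an exact permutation test the smallest p that 3 libraries against 3 allow is 0.10, which each of these values had. Vav1 kept step with the markers, differing by -0.04 in PLX1X and -0.10 in PLX3X_CD0 with overlap (exact permutation p = 0.80 and 0.90). With the median of the markers in place of their mean, the same 5 genes stayed positive in both groups, at 0.78 to 2.34 in PLX1X and 1.02 to 2.61 in PLX3X_CD0. Vav1 then stood at -0.74 in PLX1X and -0.92 in PLX3X_CD0. Pik3cg differed by 0.87 in PLX1X and 1.06 in PLX3X_CD0, and Abi3 by 0.67 and 0.61. With the median Pik3cg stood at 0.17 and 0.24, and Abi3 turned to -0.03 and -0.20. The largest differences from the mean of the markers were those of Fgr, 3.62 in PLX1X and 4.47 in PLX3X_CD0. They rest on 12, 20 and 7 counts in PLX1X, PLX3X_CD0 and NT, where the prior count of 2 weighs. The part of RNA from other cells in all these differences was not tested, so they are no levels per macrophage.

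**Figure D3:**
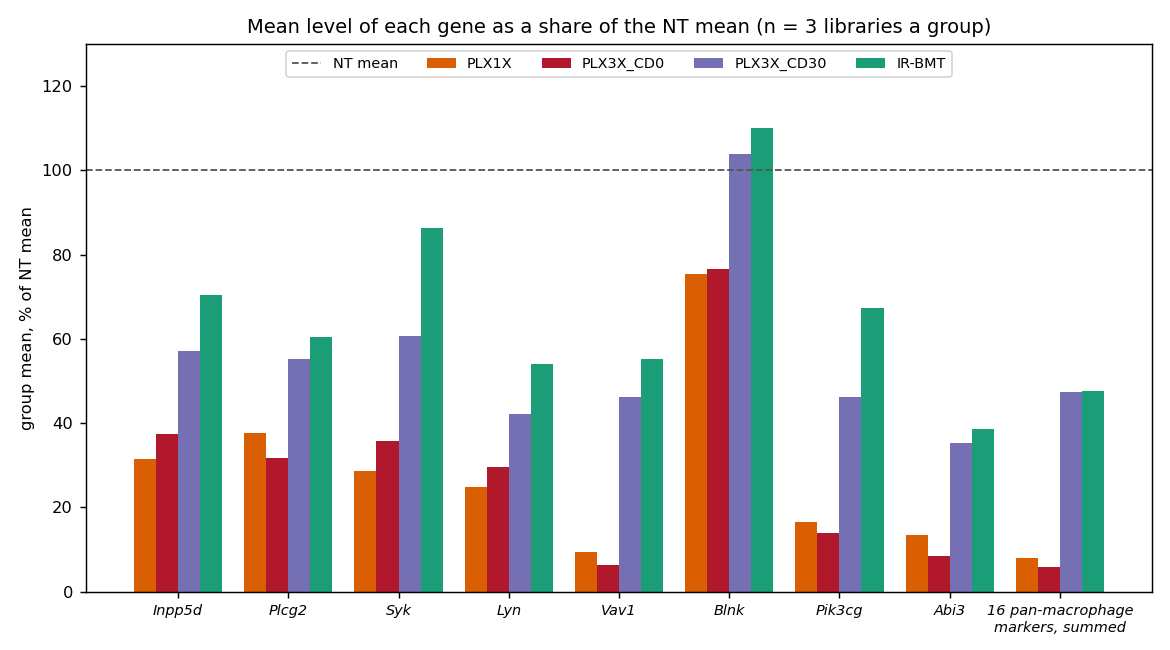
Mean level of each of the 8 genes tested and of the summed 16 pan-macrophage markers (last group) as a percent of the NT mean (dashed line), in PLX1X, PLX3X_CD0, PLX3X_CD30 and IR-BMT; the spread between libraries is in the plot of levels by library. Vav1 at 9.38% and 6.40% of NT in PLX1X and PLX3X_CD0 lies near the markers at 8.08% and 5.77%, and Blnk lies at 75.4% and 76.7%.

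Against the same measure, Blnk was higher in PLX3X_CD30 than in NT by 0.97 and in IR-BMT by 1.05, without overlap (exact permutation p = 0.10, the smallest possible), and by 0.45 and 0.57 with the median of the markers. Syk in IR-BMT was higher than in NT by 0.75, and by 0.26 with the median. Abi3 was lower than in NT by 0.50 in PLX3X_CD30 without overlap, and had a difference of -0.41 in IR-BMT with overlap. With the median these became -1.03 and -0.89. The signs of Inpp5d and Plcg2 in both groups, of Syk in PLX3X_CD30 and of Lyn, Vav1 and Pik3cg in IR-BMT turned negative with the median, among them Inpp5d at 0.41 and Pik3cg at 0.39 in IR-BMT, which had not overlapped NT. Between IR-BMT and PLX3X_CD30 the choice mattered little: relative to the markers Pik3cg was higher in IR-BMT by 0.55, Syk by 0.50, Inpp5d by 0.29 and Vav1 by 0.24, each without overlap (exact permutation p = 0.10), and by 0.59, 0.54, 0.33 and 0.28 with the median.

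Per kilobase of annotated exon, the order of the 9 genes differed between PLX1X or PLX3X_CD0 and NT brains. In NT, Lyn led at 2.95 ± 0.86 CPM per kilobase and Inpp5d followed at 2.66 ± 0.21 (SD, n = 3), which do not differ beyond their spread. Vav1 at 1.73 ± 0.45, Plcg2 at 1.56 ± 0.15 and Blnk at 1.41 ± 0.14 came next, also within their spread. Pik3cg at 0.568 ± 0.143, Syk at 0.412 ± 0.112 and Abi3 at 0.406 ± 0.075 were lower, and Fgr was lowest at 0.0178 ± 0.0077. The place of Abi3 is uncertain, because much of its exon length is shared with genes on the opposite strand. Blnk was first in PLX1X at 1.06 ± 0.15 and in PLX3X_CD0 at 1.08 ± 0.33, with Inpp5d at 0.839 ± 0.151 and 0.996 ± 0.097 within its spread. Vav1 was then at 0.162 ± 0.101 in PLX1X and 0.111 ± 0.078 in PLX3X_CD0. In PLX3X_CD30 and IR-BMT, Inpp5d was first at 1.52 ± 0.13 and 1.87 ± 0.17, with Blnk at 1.46 ± 0.20 and Lyn at 1.25 ± 0.33 within its spread in PLX3X_CD30 and Lyn at 1.59 ± 0.43 within its spread in IR-BMT.

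The genes whose profile over the 15 libraries was most like that of Vav1 were Selplg, C1qc and Cyth4 (Pearson r 0.995, 0.994 and 0.993). Pik3cg was most like Vsir, Spi1 and Fermt3 (0.985, 0.983 and 0.980), Abi3 most like Il6ra, Dock2 and Cd68 (0.978, 0.973 and 0.972) and Inpp5d most like Irf8, Nckap1l and Fgd2 (0.976, 0.970 and 0.968). Plcg2 was nearest to Csrp1, Nckap1l and Vsir (0.970, 0.963 and 0.959), and Syk to Unc93b1 and Cyth4 (0.950 and 0.948). Looser matches were found for Lyn, with Cst3, Mmp14 and Fermt3 (0.909, 0.902 and 0.898), for Blnk, with Rgs6 and Igfbp6 (0.899 and 0.898), and for Fgr, with Trappc10, Dusp23 and Dgkq (0.859, 0.854 and 0.852). All these correlations run over libraries that fall into groups with high and low macrophage RNA, and they describe likeness only.

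Many paralogs of these genes are used widely outside blood cells. Of 14 paralogs tested, 1 fell and 3 rose in PLX1X, where 8.12% of all genes tested fell and 9.97% rose. In PLX3X_CD0, 0 fell and 3 rose, where 9.53% of all genes tested fell and 12.2% rose. With 14 genes, counts of 1 and 0 that fell stand near these shares. No paralog fell in PLX3X_CD0 with edgeR's adjusted p, at an unadjusted p under 0.05 or with DESeq2. Plcg1, the broadly expressed phospholipase C-gamma, had 101 ± 1.49 CPM in PLX3X_CD0 and 83.1 ± 2.75 CPM in NT (SD, n = 3 each) and rose by 0.29 ± 0.05 on the log2 scale (edgeR adjusted p = 0.000427), while Plcg2 fell. Pik3cb, a widely expressed phosphoinositide 3-kinase subunit, rose by 0.30 ± 0.06 (adjusted p = 0.000940), while Pik3cg fell. Abi2, a WAVE subunit of neurons and other cells, rose by 0.32 ± 0.06 (adjusted p = 0.000953), while Abi3 fell. Inppl1, which encodes SHIP2, had a log2 fold change of -0.06 ± 0.07 (adjusted p = 0.618), Vav2 one of -0.11 ± 0.13 (adjusted p = 0.599) and Fyn one of 0.01 ± 0.07 (adjusted p = 0.957). Neuron markers summed to 123% of NT in PLX3X_CD0, and their part in these rises was not tested.

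In PLX1X the genes that rose were Pik3cb, by 0.32 ± 0.06, Abi2, by 0.33 ± 0.06, and Abi1, by 0.26 ± 0.06, and Vav3 fell by 0.43 ± 0.14. In PLX3X_CD30 no paralog passed edgeR's adjusted threshold, where 1.84% of all genes tested fell and 4.74% rose. At an unadjusted p under 0.05, 4 were lower and 3 higher, and DESeq2 called 1 lower. The shares hold for edgeR's adjusted threshold only, so the counts under the other criteria have none beside them. In IR-BMT, 4 fell and 3 rose, where 15.4% of all genes tested fell and 15.1% rose. Those that fell were Vav3, by 0.71 ± 0.14, Yes1, by 0.60 ± 0.12, Abi1, by 0.18 ± 0.06, and Pik3ca, by 0.16 ± 0.05. Src, by 0.47 ± 0.07, Pik3cd, by 0.35 ± 0.08, and Plcg1, by 0.28 ± 0.05, rose. Zap70 and Clnk, the relatives of Syk and Blnk in lymphocytes and mast cells, passed the threshold in none of the 4 comparisons with NT, and stood at 1.09 and 0.340 CPM in PLX3X_CD0 against 1.34 and 0.0614 CPM in NT.

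**Figure D4:**
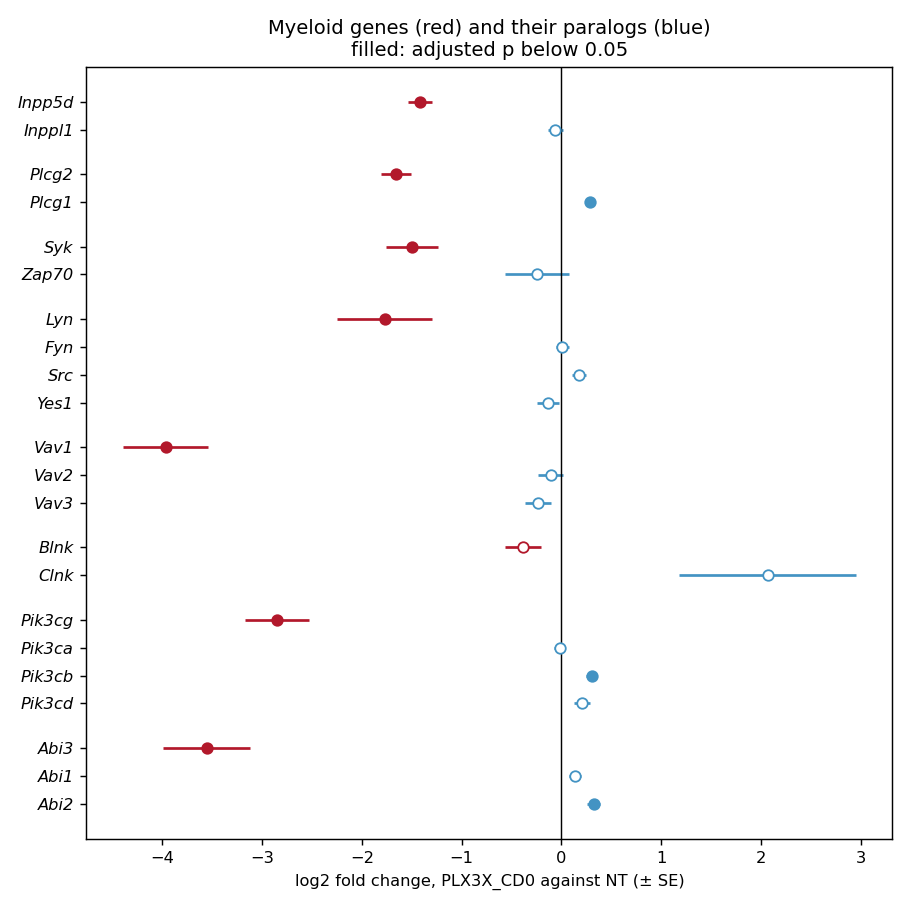
Log2 fold change of PLX3X_CD0 against NT (horizontal axis) with its SE for the 8 myeloid genes tested (red) and their 14 paralogs (blue), grouped by family. Filled points passed an adjusted p of 0.05; the red points lie between -3.97 and -0.38 and the only filled blue points, Plcg1, Pik3cb and Abi2, lie at 0.29 to 0.32.

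Among immune receptors, activating and inhibitory, and ITAM adaptors, 6 of 8 tested fell in PLX1X and the same number in PLX3X_CD0. None of them rose, and 8.12% and 9.53% of all genes tested fell. 3 fell in PLX3X_CD30 and 2 in IR-BMT, where 1.84% and 15.4% fell. Trem2, the lipid-sensing receptor of microglia, stood at 1.79 ± 0.31 CPM in PLX1X, 1.57 ± 0.39 in PLX3X_CD0, 9.00 ± 0.33 in PLX3X_CD30 and 10.9 ± 1.34 in IR-BMT, against 19.3 ± 0.67 CPM in NT (SD, n = 3 each). It fell by 3.42 ± 0.16, 3.62 ± 0.16, 1.10 ± 0.14 and 0.83 ± 0.14 on the log2 scale (largest edgeR adjusted p = 0.000284). Fcgr3, an activating Fc receptor, fell alike, by 3.54 ± 0.17, 3.48 ± 0.17, 1.06 ± 0.15 and 1.04 ± 0.15. Tyrobp, the adaptor of TREM2, fell by 3.64 ± 0.34 in PLX1X and 4.24 ± 0.36 in PLX3X_CD0, and its log2 fold changes of -0.89 ± 0.29 in PLX3X_CD30 and -0.76 ± 0.29 in IR-BMT missed the threshold. Fcgr2b, the inhibitory Fc receptor, fell in PLX1X, PLX3X_CD0 and PLX3X_CD30. Clec7a and Cd300lf, both under 0.35 CPM on average in every group, passed in no comparison with NT.

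Among other tyrosine kinases and phosphatases of myeloid cells, 7 of 10 fell and 1 rose in both PLX1X and PLX3X_CD0. Over all genes tested, 8.12% fell and 9.97% rose in PLX1X, and 9.53% fell and 12.2% rose in PLX3X_CD0, so the 1 that rose is near the general share. Ptprc, the phosphatase CD45, fell by 2.63 ± 0.38 in PLX1X, 3.64 ± 0.41 in PLX3X_CD0 and 1.40 ± 0.36 in IR-BMT. Fes, a cytoplasmic kinase, fell in all 4 groups, and Ptpn6, the phosphatase SHP-1, passed the threshold in PLX1X and PLX3X_CD0. Csk, which restrains Src-family kinases in most cells, and Ptpn22 passed in none. The gene that rose was Ptk2b, a kinase that neurons express strongly, by 0.30 ± 0.08 in PLX1X and 0.44 ± 0.08 in PLX3X_CD0; it was named after its values had been seen. In PLX3X_CD30, 2 of the list fell and none rose, where 1.84% of all genes tested fell and 4.74% rose. In IR-BMT, 4 fell and 1 rose, where 15.4% fell and 15.1% rose.

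Of 14 adaptors that work beside Blnk, 7 fell and 1 rose in PLX1X, 7 fell and 3 rose in PLX3X_CD0, 3 fell and 1 rose in PLX3X_CD30, and 4 fell and 1 rose in IR-BMT. Of all genes tested, 8.12%, 9.53%, 1.84% and 15.4% fell in these groups, and 9.97%, 12.2%, 4.74% and 15.1% rose. Fyb, a T cell and myeloid adaptor, fell by 3.41 ± 0.36 in PLX1X, 3.45 ± 0.36 in PLX3X_CD0, 1.07 ± 0.31 in PLX3X_CD30 and 1.58 ± 0.32 in IR-BMT. Lcp2, which encodes SLP-76, the adaptor related to Blnk, fell by 1.77 ± 0.24 in PLX1X and 1.84 ± 0.24 in PLX3X_CD0. Pik3ap1, an adaptor for phosphoinositide 3-kinase, fell by 2.00 ± 0.24 and 1.82 ± 0.23 in these groups, and Grap by 1.07 ± 0.15 and 0.99 ± 0.15. Dok2 passed in none, and Skap2 passed in IR-BMT, where it fell by 0.24 ± 0.09.

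Of 11 genes of phosphoinositide metabolism tested, 2 fell and 0 rose in PLX1X, and 2 fell and 2 rose in PLX3X_CD0. Of all genes tested, 9.97% rose in PLX1X and 12.2% in PLX3X_CD0, so the counts that rose are near the general shares. The 2 that fell are 18.2% of the list, beside 8.12% of all genes tested in PLX1X and 9.53% in PLX3X_CD0. The median log2 fold change was 0.01 in PLX1X and -0.00 in PLX3X_CD0. Pik3r5, the regulatory subunit that pairs with the Pik3cg product, fell by 1.43 ± 0.18 in PLX1X, 1.05 ± 0.18 in PLX3X_CD0 and 0.80 ± 0.18 in PLX3X_CD30. Akt2 fell by 0.35 ± 0.10 in PLX1X and 0.30 ± 0.10 in PLX3X_CD0, and Pik3r1 and Pik3r2 rose in PLX3X_CD0 by 0.23 ± 0.06 and 0.23 ± 0.07. Akt1 and Inpp4a had log2 fold changes of -0.00 ± 0.07 and -0.01 ± 0.07 there. In PLX3X_CD30, 1 of this list fell and none rose, where 1.84% of all genes tested fell and 4.74% rose. In IR-BMT, where 15.4% fell and 15.1% rose, 2 of the list fell and 2 rose, Pik3r2 by 0.60 ± 0.07 and Akt1 by 0.27 ± 0.07.

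Of 11 calcium and diacylglycerol effectors tested, 3 fell and 1 rose in PLX1X, 2 fell and 1 rose in PLX3X_CD0, and 1 fell in each of PLX3X_CD30 and IR-BMT. Those that fell are 27.3%, 18.2%, 9.09% and 9.09% of the list, beside 8.12%, 9.53%, 1.84% and 15.4% of all genes tested. The 1 that rose in PLX1X and in PLX3X_CD0 stands beside 9.97% and 12.2% of all genes tested. Rasgrp3, a Ras activator that binds diacylglycerol, was the gene that fell in all 4 groups, by 0.50 ± 0.10, 0.54 ± 0.10, 0.35 ± 0.10 and 0.68 ± 0.10. Rasgrp1, which neurons express, rose by 0.24 ± 0.08 in PLX1X and 0.43 ± 0.08 in PLX3X_CD0. Prkcd fell by 2.11 ± 0.61 in PLX3X_CD0, and its NT level of 44.0 ± 36.5 CPM (SD, n = 3) was widely spread. Malt1, Card9 and Prkcb passed in none.

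Of 12 genes of Rac and actin regulation and integrin activation, 8 fell and 1 rose in PLX1X and in PLX3X_CD0. In PLX3X_CD30, 7 fell and 1 rose, and in IR-BMT, 5 fell and 1 rose. In PLX1X, PLX3X_CD0, PLX3X_CD30 and IR-BMT, 8.12%, 9.53%, 1.84% and 15.4% of all genes tested fell and 9.97%, 12.2%, 4.74% and 15.1% rose, so the 1 that rose is near the general share. Nckap1l, the blood-cell subunit of the WAVE complex, stood at 3.38 ± 0.61 CPM in PLX1X, 3.43 ± 0.26 in PLX3X_CD0, 6.94 ± 0.31 in PLX3X_CD30 and 7.81 ± 0.28 in IR-BMT, against 14.8 ± 0.85 CPM in NT (SD, n = 3 each). It fell by 2.13 ± 0.13, 2.11 ± 0.13, 1.09 ± 0.13 and 0.92 ± 0.12 (largest edgeR adjusted p = 0.000197). Dock2, a Rac exchange factor of leukocytes, fell by 2.88 ± 0.30, 3.62 ± 0.32, 1.17 ± 0.28 and 1.39 ± 0.28 in the same order, and Fermt3 and Apbb1ip, which activate integrins in blood cells, fell in all 4 groups. The gene that rose was Coro1a, an actin-binding protein, by 0.29 ± 0.06 in PLX1X and 0.72 ± 0.06 in IR-BMT; it was named after its values had been seen. Rac1 and Brk1, which most cells use, passed in none of the comparisons with NT.

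Other genes linked to Alzheimer risk moved in both directions. Of 21 tested, 7 fell and 3 rose in PLX1X, 6 fell and 4 rose in PLX3X_CD0, 2 fell and 2 rose in PLX3X_CD30, and 4 fell and 4 rose in IR-BMT. Of all genes tested, 8.12%, 9.53%, 1.84% and 15.4% fell and 9.97%, 12.2%, 4.74% and 15.1% rose in the same order, so the counts in IR-BMT are near the general shares. Cd33, an inhibitory lectin of microglia, fell by 4.79 ± 0.36 in PLX1X, 4.82 ± 0.36 in PLX3X_CD0, 1.18 ± 0.29 in PLX3X_CD30 and 1.47 ± 0.29 in IR-BMT. Spi1, which encodes PU.1, stood at 0.517 ± 0.302 CPM in PLX1X, 0.337 ± 0.281 in PLX3X_CD0, 3.13 ± 0.94 in PLX3X_CD30 and 4.17 ± 0.37 in IR-BMT, against 6.95 ± 1.06 CPM in NT. It fell by 3.73 ± 0.42 in PLX1X and 4.36 ± 0.44 in PLX3X_CD0. Sorl1, a sorting receptor that neurons and other cells express, rose in all 4 groups, by 0.36 ± 0.07, 0.60 ± 0.07, 0.46 ± 0.07 and 0.68 ± 0.08. Epha1 and Zcwpw1 passed in none.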

How the data were processed

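RNA of mouse forebrain was sequenced in paired reads on a NovaSeq-6000 after SMARTer Ultra Low cDNA synthesis, per the labels' protocols. The authors deposited raw counts per gene with CPM, each count divided by its library total and scaled to a common sum, which the deposited columns equal to within rounding. DRAGEN, DESeq2 and the build mm10 are named per the submitters' processing notes; the annotation, versions and strand setting were not given in the sources used. Even numbers made up 70.6% to 74.7% of the counts between 1 and 4, so a count may be worth less than 1 fragment. Counting intervals cover counting error only and may then be too narrow. Of 55774 rows, 287 repeated an identifier with identical counts and were removed. 55141 identifiers were found in GENCODE vM21, which gave positions and exon lengths. Libraries were grouped by the labels' titles and library names.

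Counts were tested with edgeR 4.0.16 (R 4.3.3): TMM, filterByExpr by group, 1 robust fit with group means, quasi-likelihood F-tests (two-sided) for 7 comparisons, Benjamini-Hochberg adjustment over 21780 genes and a threshold of 0.05 (biological coefficient of variation 12.1%). SE was taken as the size of the log2 fold change divided by the square root of F. Relative levels used log2 CPM with a prior count of 2. Alternatives were DESeq2 1.42.0, RLE factors, no filter, a filter of CPM at least 1 in 3 libraries, the replicate number as a term, fits on 6 libraries only, leaving out each library, and for relative levels a prior count of 0.5 or the median of the markers. The procedure was tested on simulated data.

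The 9 genes and all lists were chosen with earlier results of these data known. The text names the 9 genes, their 14 paralogs, from each pathway list the 4 genes with the smallest p in PLX3X_CD0 against NT and the 2 with the largest, from marker lists the highest genes and those without counts, and for each of the 9 the 3 most correlated genes (mean log2 CPM 1 or more) over the libraries. A few genes that this rule names are not reported here. Ptk2b and Trem2 each stand in a pair of lists.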

Additional observations from a re-analysis of the deposited data

How the results depend on the processing

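Of 1175 refits of the fold changes of single genes, 1124 kept direction and side of the threshold, 17 lost a call, 22 gained one and 12 changed sign. No called value changed sign, and each change of sign came on leaving out 1 library: the log2 fold change ran from -0.006337 to 0.16 for Blnk in PLX3X_CD30 against NT. In PLX3X_CD0 against PLX1X it ran from -0.19 to 0.24 for Blnk, -0.64 to 0.22 for Pik3cg, -1.06 to 0.0257 for Abi3 and -0.70 to 0.59 for Lyn, and in IR-BMT against PLX3X_CD30 from -0.0242 to 0.17 for Blnk and -0.13 to 0.32 for Abi3.

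Leaving out 1 library gave 2 to 6 of the 9 genes called in PLX3X_CD30 against NT, where all libraries gave 4. It gave 2 without NT replicate 3, PLX3X_CD30 replicate 1 or PLX3X_CD30 replicate 2. In IR-BMT against NT it gave 3 to 6, where all libraries gave 3. It gave 5 there without PLX1X replicate 3 and 6 without PLX3X_CD0 replicate 2, each time with Fgr, called higher, among them. Over all genes it gave 608 to 1714 in PLX3X_CD30 against NT (1432 with all libraries), lowest without any 1 of its PLX3X_CD30 libraries (756, 658 and 608). It gave 150 to 1005 in PLX3X_CD0 against PLX1X (536), lowest without PLX1X replicate 2 and highest without NT replicate 1. It gave 384 to 1203 in PLX3X_CD30 against PLX3X_CD0 (828), lowest without PLX3X_CD30 replicate 1, and 1975 to 4617 in IR-BMT against PLX3X_CD30 (3597), lowest without IR-BMT replicate 2. Of the 9 genes, 3 to 6 then lay apart relative to the markers in PLX3X_CD30 against NT (3 with all libraries, 6 without PLX3X_CD30 replicate 3, and 7 with the median of the markers) and 4 to 7 in IR-BMT against PLX3X_CD30 (4 with all libraries, 7 without IR-BMT replicate 1). Fits on 6 libraries called 2143 genes in PLX1X against NT, 2601 in PLX3X_CD0 against NT, 359 in PLX3X_CD30 against NT, 5 of the 9 in IR-BMT against NT and 1 in IR-BMT against PLX3X_CD30. Without the filter 7 of the 9 were called in PLX3X_CD30 against NT, 5 in IR-BMT against NT, and over all genes 1186 in PLX3X_CD0 against PLX1X and 1395 in PLX3X_CD30 against PLX3X_CD0, and DESeq2 called 1076 in PLX3X_CD0 against PLX1X. No share of all genes called is given beside these counts of the 9 genes. In the fit without the filter the prior degrees of freedom of the median gene were infinite. The cause was not tested for any of these shifts.

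Libraries with the same replicate number did not deviate together (r -0.0896 to 0.136, and in 0 of 7 comparisons were all pairs over 0.1), so the numbers were not read as pairs. With the replicate number as a block, 7, 7, 4 and 3 of the 9 genes were called in PLX1X, PLX3X_CD0, PLX3X_CD30 and IR-BMT against NT, and 3833, 4575, 1241 and 6517 genes in all. Depth limits Fgr and Abi3, which rest on the fewest counts.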
